A study of Mus musculus with 10 samples.

Results

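Oxidative phosphorylation genes code for the respiratory chain complexes I to IV and the ATP synthase, complex V, of the inner mitochondrial membrane. They were taken from the count table by gene symbol: Nduf subunits of complex I, Sdha to Sdhd of complex II, Uqcr genes of complex III, Cox4 to Cox8 genes of complex IV, Atp5 genes of complex V, and the protein-coding genes of the mitochondrial genome. The rule found 97 of 31053 genes, 84 of them nuclear and 13 mitochondrial (symbols starting with mt-). By symbol, 44 belonged to complex I, 4 to complex II, 9 to complex III, 21 to complex IV and 19 to complex V. Ndufa4 and Ndufa4l2 were counted under complex I by their symbols, although Ndufa4 is now known as a subunit of complex IV. The rule missed a few subunits with other symbols, such as Ndufab1, and 3 members (Cox7b2, Cox8c and Atp5o) had no UMI in any cell used. Counts of the Atp5o gene stood under the symbol Atp5o.1, which is also a member.

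The study sorted CD45+ immune cells from whole mouse brains and sequenced them with 10x Genomics 3' single-cell chemistry, 1 library per group from a pool of 3 littermates. WT mice and mice with a whole-body Nlrp3 deletion (Nlrp3KO) were taken at 3, 6 and 9 months of age. APP/PS1 mice, which carry transgenes for mutant human APP and mutant PS1 expressed in neurons, and Nlrp3KO APP/PS1 mice were taken at 3 and 9 months. The WT and Nlrp3KO libraries without the transgenes are called non-diseased here, and all brains were dissociated in actinomycin D, which blocks transcription. The 10 libraries held 45472 cells, of which 40547 were microglia by the authors' annotation. Microglial UMIs (unique molecular identifiers, which count captured molecules) ranged from 9357431 to 35107144 per library, and Nlrp3 had 0 UMIs in microglia of the Nlrp3KO libraries against 4160 in the others. The 3 ages were 3 batches in the annotation, and these cannot be told apart from age. Libraries, not cells, were the replicates, and no library had a separate repeat at the same genotype and age. Of the cells used, 493 (1.08%) had a barcode that also occurred in another library.

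Complexes I, III and IV pass electrons to oxygen and pump protons, complex II feeds in electrons from the citric acid cycle without pumping, and complex V uses the proton gradient to make ATP. Some core subunits of complexes I, III, IV and V come from the mitochondrial genome, complex II comes from nuclear genes alone, and the other subunits are nuclear. Several subunits of complex IV exist as isoforms: Cox6a1, Cox7a2 and Cox8a are the forms of most tissues, while Cox6a2, Cox7a1 and Cox8b are known from heart and skeletal muscle. Microglia are known to shift part of their energy metabolism between respiration and glycolysis when activated.

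The isoform pair Cox6a1 and Cox6a2 carried the largest contrast between microglial states, so a stretch that tells them apart is shown. Cox6a2 lies on chromosome 7 (chr7:128205435-128206387, minus strand) and Cox6a1 on chromosome 5 (chr5:115345642-115348981, minus strand) of mm10 in the GENCODE M21 annotation. Their coding sequences, 291 and 336 bases long, were 66.6% identical over 287 aligned bases, and the longest run of bases shared by their transcripts was 12. The last 134 coding bases of each, from base 158 in Cox6a2 and from base 203 in Cox6a1, are printed 5′ to 3′ with the 38 differing bases in capitals.
Cox6a2: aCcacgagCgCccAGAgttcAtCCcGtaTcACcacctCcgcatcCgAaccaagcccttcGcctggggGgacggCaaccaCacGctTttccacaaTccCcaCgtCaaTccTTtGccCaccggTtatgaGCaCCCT
Cox6a1: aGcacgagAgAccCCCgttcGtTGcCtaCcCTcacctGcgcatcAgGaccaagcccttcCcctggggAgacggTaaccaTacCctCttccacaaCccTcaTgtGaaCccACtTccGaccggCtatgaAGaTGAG

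The promoters of 3 members that rose in APP/PS1 DAM, the disease-associated microglia described below, are shown because such promoters often hold sites of the factors NRF1 and GABPA (an ETS factor), known regulators of respiratory genes. Each window runs from 250 bases before the RefSeq transcription start to 30 bases after it, on GRCm38.p6, and all 3 genes lie on the minus strand. Capitals mark matches, on either strand, to the NRF1 motif CGCNTGCG or the ETS motif CCGGAAG.
Cox6a1 (chr5:115348929-115349208): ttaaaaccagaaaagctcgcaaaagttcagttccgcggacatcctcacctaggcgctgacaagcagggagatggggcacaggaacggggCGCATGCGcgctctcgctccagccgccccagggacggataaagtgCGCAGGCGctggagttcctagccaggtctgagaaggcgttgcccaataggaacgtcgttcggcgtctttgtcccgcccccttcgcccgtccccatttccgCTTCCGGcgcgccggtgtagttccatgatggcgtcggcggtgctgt
Uqcrh (chr4:116075041-116075320): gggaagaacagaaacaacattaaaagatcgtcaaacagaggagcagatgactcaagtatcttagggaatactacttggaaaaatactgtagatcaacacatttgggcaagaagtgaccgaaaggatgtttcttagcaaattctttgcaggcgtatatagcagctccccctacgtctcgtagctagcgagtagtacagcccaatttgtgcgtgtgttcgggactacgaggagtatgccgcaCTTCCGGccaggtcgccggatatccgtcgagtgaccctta
Atp5e (chr2:174464072-174464351): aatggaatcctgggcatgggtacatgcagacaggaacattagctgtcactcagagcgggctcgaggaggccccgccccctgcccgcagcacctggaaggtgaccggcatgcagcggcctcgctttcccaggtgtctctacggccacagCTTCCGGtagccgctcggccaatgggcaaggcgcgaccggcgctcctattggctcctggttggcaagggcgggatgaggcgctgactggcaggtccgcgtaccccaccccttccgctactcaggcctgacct
The Cox6a1 window held 2 NRF1 matches and 1 ETS match, and the other windows held 1 ETS match each. Windows were found for 66 of the 84 nuclear members (71 windows). The shares below were counted on full windows, which reach further past the transcription start than the printed ones. The NRF1 motif occurred in 39.4% of these windows and in 8.21% of all 32851 promoter windows, and the ETS motif in 22.5% against 8.86%. The YY1 motif AANATGGCG occurred in 14.1% against 2.38%. The TATAAA box was the exception, with 11.3% of member windows and 13.6% of all windows. All motifs were searched on both strands, and a window could hold several of them, also overlapping. Ndufa1 and Atp5c1 also rose in APP/PS1 DAM. The window of Ndufa1 and the first of 2 windows of Atp5c1, of the same extent as the printed ones, held none of the NRF1, ETS and YY1 motifs. These matches are letters in a window and not measured binding sites.

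In all microglia pooled, mitochondrial members dominated the group, with 31960 CPM (UMIs of a gene divided by all UMIs of the same cells, times 1000000) on the 13 mitochondrial genes and 10812 CPM on the 84 nuclear genes. A UMI stands for 1 molecule read from its 3' end, so CPM was not scaled by transcript length. The highest members were mt-Co3 with 5562 CPM, mt-Atp6 with 5422 CPM, mt-Co1 with 4370 CPM, mt-Co2 with 4142 CPM and mt-Cytb with 3229 CPM. The mt-Co genes code for the catalytic core of complex IV, mt-Atp6 for the proton channel of complex V and mt-Cytb for the core of complex III. mt-Nd4 led complex I with 2657 CPM, and Sdha, the flavoprotein of complex II, led that complex with 106 CPM. Among nuclear members the order began with Cox4i1 (495 CPM), Cox8a (387 CPM), Cox7a2l (311 CPM) and Atp5g2 (289 CPM). In 7 members the microglia held under 100 UMIs. These were the 3 members without a UMI and the muscle, lung or other tissue forms Cox7a1 (96 UMIs), Cox4i2 (4 UMIs), Cox8b (0 UMIs) and Ndufa4l2 (0 UMIs). The count of 0 allows up to 0.0154 CPM in microglia, a limit of 3 counts that covers counting error only.

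The authors' annotation divides microglia into homeostatic microglia (HM, 31953 cells), disease-associated microglia (DAM, 901 cells), a transitory state toward DAM (TM, 2538 cells), interferon-response microglia (IRM, 2271 cells), a state with immediate early genes (IEG, 2094 cells) and proliferating microglia (PM, 790 cells). DAM are known to gather at amyloid plaques and to switch on lipid and phagocytic genes. Their labels were checked against marker genes: Cst7 stood at 1511 CPM in DAM and 12.9 in HM, Spp1 at 210.6 and 0.552, and Apoe at 7693 and 368. P2ry12, a homeostatic marker, stood at 2390 CPM in DAM and 3495 in HM over all libraries together, and was lower in DAM in 8 of 10 libraries. In WT 9m and Nlrp3KO 9m it was higher in DAM (3441 and 3715 CPM) than in HM (3035 and 2975 CPM), so the DAM of these 2 libraries showed no loss of this marker. The states are clusters of these same cells and genes, so a state against HM is given as a description with no test.

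Oxidative phosphorylation transcripts took a larger share of the UMIs in DAM than in HM in each of the 10 libraries, for both genomes. The nuclear sum ranged from 10278 to 15342 CPM in DAM, with a median of 12686, and from 9776 to 11963 CPM in HM, with a median of 10855. The 2 ranges overlapped between libraries, but within every library DAM was the higher. The log2 ratio of DAM to HM was 0.24 ± 0.19 (SD, n = 10 libraries). The mitochondrial sum ranged from 33560 to 47578 CPM in DAM and from 23981 to 36367 CPM in HM, a log2 ratio of 0.38 ± 0.22 (SD, n = 10). Depth and doublet scores also differed between the states: the median cell held 5726 UMIs in DAM and 4366 in HM, and a doublet score above 0.5 was recorded for 14.4% of DAM and 6.35% of HM. Without the cells of such a score the ratios were 0.24 for the nuclear and 0.41 for the mitochondrial sum. Markers of border macrophages and monocytes were also higher in DAM in part of the libraries, as given below. The part of depth and of such markers in the result was not tested.

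The complexes differed in how far they stood above HM. Nuclear subunits of complex IV had the highest ratio, with 0.44 ± 0.28, followed by complex III with 0.30 ± 0.21 and complex V with 0.20 ± 0.17, each higher in 10 of 10 libraries (log2 ratio of the summed CPM, SD). Complex I came to 0.12 ± 0.14 and was higher in 7 of 10 libraries. Complex II, the complex without mitochondrially encoded subunits, went the other way, with -0.11 ± 0.13, and was higher in only 2 of 10 libraries. Sdha, its flavoprotein, had a mean log2 ratio of 0.15 ± 0.20, while the iron-sulfur subunit Sdhb had -0.28 ± 0.35 and the membrane anchors Sdhc and Sdhd had -0.19 ± 0.34 and -0.21 ± 0.33. Each of these 4 means was smaller than its SD.

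Of the 77 nuclear members with at least 100 counts over both states, 13 were higher in DAM than in HM in each of the 10 libraries, and none was lower in each. All 13 mitochondrial members passed that minimum, and 8 of them were higher in every library. Among all 11759 genes that passed, 1.93% were higher in every library and 6.74% were lower in every library. The median log2 ratio was 0.16 for nuclear members, 0.36 for mitochondrial members and -0.14 for all genes. Being higher in every library is easier to reach for abundant transcripts, and many of the members were abundant.

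Cox6a2 stood far above the rest with a mean log2 ratio of 3.99 ± 1.14 (SD, n = 10), and is described further below. Next came Cox6b2, the testis form of a complex IV subunit, with 1.36 ± 0.90, but at only 5.85 CPM in DAM and 2.46 CPM in HM and higher in just 7 of 10 libraries. Ndufa1, a small accessory subunit of complex I that lies on chromosome X, had 1.13 ± 0.55. Its level was 108 to 313 CPM in DAM (median 163) and 62.0 to 94.6 CPM in HM (median 83.4), so the lowest DAM library lay above the highest HM library. Cox6a1 followed with 0.64 ± 0.45, at 155 to 405 CPM in DAM (median 220) and 137 to 157 CPM in HM (median 144). Uqcrh, the hinge protein of complex III, had 0.56 ± 0.32, at 255 to 534 CPM in DAM (median 333) and 207 to 286 CPM in HM (median 248). In Cox6a1 and Uqcrh the ranges over libraries overlapped slightly, although DAM was higher within each library.

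The other nuclear members higher in every library were Atp5k, Atp5l and Atp5g2 of complex V, Cox8a, Cox4i1, Cox7c and Cox6b1 of complex IV, Ndufb5 of complex I and Uqcr11 of complex III, with mean log2 ratios from 0.33 for Atp5g2 to 0.56 for Atp5k. Cox4i1, the regulatory subunit 4 of complex IV, stood at 478 to 860 CPM in DAM (median 624) and 432 to 519 CPM in HM (median 476). The mitochondrial members higher in every library were mt-Co1 (0.52), mt-Nd5 (0.46), mt-Cytb (0.41), mt-Nd2 (0.40), mt-Nd4 (0.38), mt-Co2 (0.37), mt-Co3 (0.36) and mt-Nd1 (0.36), all mean log2 ratios with SDs from 0.18 to 0.24. mt-Atp6 (0.33 ± 0.27) and mt-Nd4l (0.20 ± 0.25) were higher in 9 of 10 libraries, mt-Nd6 (0.35 ± 0.59) and mt-Nd3 (0.21 ± 0.28) in 8, and mt-Atp8 (0.27 ± 0.38) in 7. At the low end stood Ndufs3 (-0.46 ± 0.45), Ndufa8 (-0.37 ± 0.39), Sdhb (-0.28 ± 0.35) and Atp5c1 (-0.26 ± 0.54), 4 subunits of complexes I, II and V. Ndufs3 belongs to the catalytic arm of complex I and was lower in DAM in 9 of 10 libraries.

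**Figure D1:**
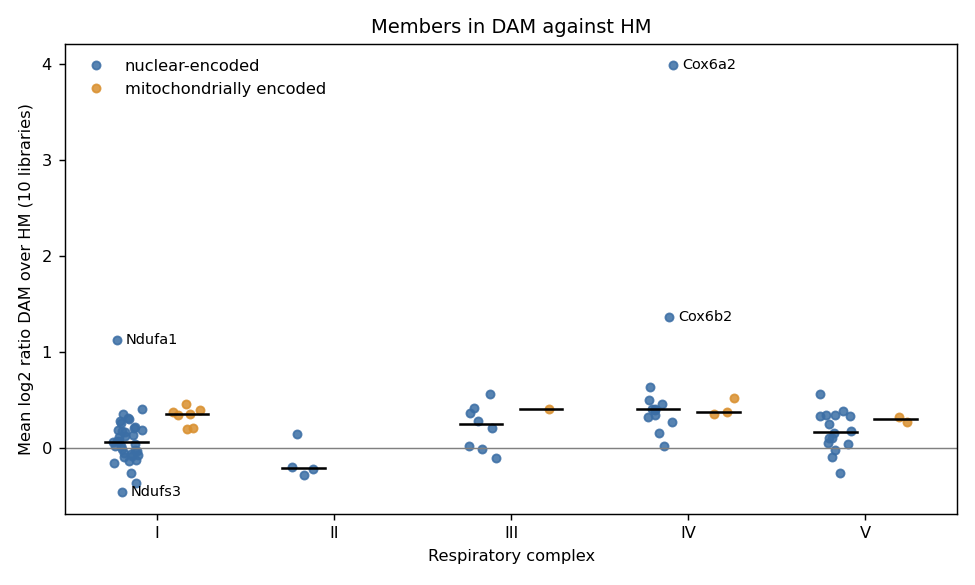
Mean log2 ratio of CPM in DAM to HM over the 10 libraries for each member with at least 100 counts, by complex. Black bars mark the median over the nuclear or mitochondrial members of a complex. Cox6a2 lies at 3.99 and Ndufa1 at 1.13, while complex II subunits lie between -0.28 and 0.15.

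Paralogous forms moved unequally between the states. Of the c-ring genes of complex V, which code for the same mature protein, Atp5g2 had a mean log2 ratio of 0.33 ± 0.23, Atp5g1 of 0.16 ± 0.36 and Atp5g3 of -0.09 ± 0.45. Transcripts of Atp5g1 and Atp5g2 shared a run of at most 21 bases, far shorter than a read. In complex IV, Cox6b1 had 0.39 ± 0.23, Cox6c 0.41 ± 0.45, Cox7b 0.34 ± 0.23, Cox7a2l 0.28 ± 0.31 and Cox7a2 0.16 ± 0.29. Ndufa4, counted with complex I by its symbol, had 0.08 ± 0.10.

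The other microglial states had their own levels of both sums. TM had a nuclear log2 ratio to HM of 0.17 ± 0.03 and a mitochondrial ratio of 0.48 ± 0.06 (SD, n = 10), the highest mitochondrial mean of the 5 states with these labels (0.35 with the labels of the authors' annotation of all CD45+ cells). Both ratios were higher with mitochondrial and ribosomal protein genes left out of the total, as given at the end. All 13 mitochondrial members and 23 nuclear members were higher in TM in every library, against 3.97% of all genes. A set of 4 members were lower in every library, against 20% of all genes: Ndufs1 (-0.26 ± 0.20), Ndufa9 (-0.21 ± 0.14), Ndufs8 (-0.19 ± 0.13) and Ndufc2 (-0.14 ± 0.09), all of complex I. Cox6a2 led TM as well (1.26 ± 0.49), but at 15.8 CPM and thus far below DAM, and Uqcrh followed among abundant members (0.59 ± 0.09).

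IEG microglia showed a mostly mitochondrial difference, with a mitochondrial log2 ratio of 0.34 ± 0.09 and a nuclear ratio of 0.10 ± 0.05, both higher in 10 of 10 libraries. In this state 12 mitochondrial and 11 nuclear members were higher in every library (6.30% of all genes), and Ndufb4, Ndufb3 and Cox7a2l were lower in every library (11.1% of all genes). Cox7a2l had the lowest of these ratios, at 243 CPM against 305 CPM in HM, with a mean log2 ratio of -0.31 ± 0.20. In PM the nuclear ratio was 0.19 ± 0.11 and above 0 in 10 of 10 libraries. The mitochondrial ratio of PM was 0.16 ± 0.19 and above 0 in 8, so the 2 ratios were alike within their SDs. In PM 14 nuclear members and 1 mitochondrial member were higher in every library (10.3% of all genes) and none was lower (4.61%), with Atp5g2 at 0.47 ± 0.17. IRM differed least from HM, with 0.02 ± 0.03 for the nuclear and 0.10 ± 0.06 for the mitochondrial sum, 3 nuclear members and 1 mitochondrial member higher in every library (4.38%) and only Ndufs8 lower (5.78%).

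**Figure D2:**
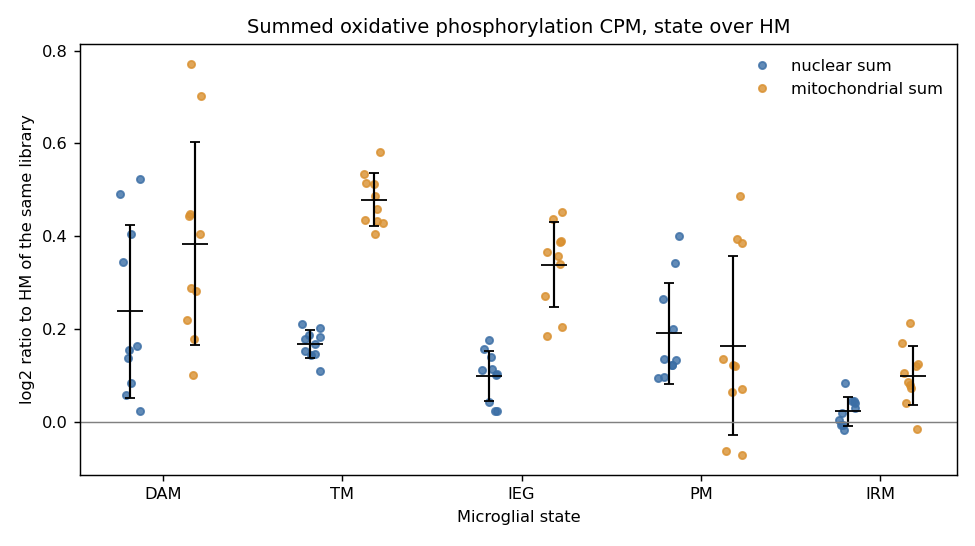
Log2 ratio of the nuclear sum and of the mitochondrial sum to HM of the same library, for each microglial state, with 1 point per library and the mean ± SD over 10 libraries. TM points for the mitochondrial sum lie between 0.40 and 0.58, and the DAM points spread most, from 0.10 to 0.77.

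Outside the microglia, lymphocytes held larger nuclear shares than microglia did. T cells had a nuclear sum of 17571 to 21265 CPM over 10 libraries (median 18222), a log2 ratio to all microglia of the same library of 0.74 ± 0.15 (SD). NK cells had 0.82 ± 0.08 over 7 libraries and B cells 0.71 ± 0.15 over 8, where a library entered with at least 20 cells of the type. Border-associated macrophages (BAM), the macrophages of meninges and perivascular spaces, had 0.34 ± 0.10 over 10 libraries. Monocytes, which reached 20 cells in only 2 libraries, had 0.95 and 1.18. The mitochondrial sum set the types apart differently: 0.94 ± 0.12 in B cells, 0.47 ± 0.17 in T cells, 0.37 ± 0.11 in NK cells and 0.13 ± 0.19 in BAM. Neutrophils, which rely mainly on glycolysis, had the lowest pooled mitochondrial sum of the annotated types, at 13190 CPM in 79 cells, while plasmacytoid dendritic cells (pDC) had 64806 CPM in 102 cells.

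In T cells 55 nuclear and 4 mitochondrial members were higher than in microglia in every library (15.9% of all genes), and 4 nuclear and 2 mitochondrial members were lower (36.0%). The counts were close to this in NK cells, with 55 and 4 higher (16.1%) and 2 and 1 lower (35.2%). B cells had 51 nuclear and 10 mitochondrial members higher (12.5%) and 3 nuclear members lower (33.9%). BAM had 29 and 3 higher (8.23%) and 5 and 3 lower (34.6%). Atp5e, the small epsilon subunit of complex V, ranked among the 2 highest abundant members in all 3 lymphocyte types, with mean log2 ratios of 1.44 ± 0.17 in T cells, 1.57 ± 0.12 in NK cells and 1.34 ± 0.15 in B cells. Ndufc2 of complex I was lower in NK cells (-0.97 ± 0.21) and B cells (-0.61 ± 0.22) in every library. These shares depend on what else a cell makes: ribosomal protein genes took 330476 CPM in T cells and 89250 CPM in microglia, and without those and the mitochondrial genes in the total the T cell nuclear ratio was 1.18. With this total the nuclear and mitochondrial ratios of T, B and NK cells and BAM were all higher, as given at the end.

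Over cell types, among members with at least 100 UMIs in all cells, the one with the widest range was Cox6a2, from 1583 CPM in pDC to 0 in NKT cells. It was followed by Cox6b2, at 38.9 CPM in 50 precursor cells and 2.87 CPM in microglia, and by Atp5s, a factor related to complex V, at 10.9 CPM in microglia and 0.594 CPM in monocytes. mt-Nd6 and mt-Nd2 came next, both lowest in neutrophils, where mt-Nd2 stood at 381 CPM against 2637 CPM in microglia. Muscle-type isoforms other than Cox6a2 were close to absent from the immune cells: Cox7a1 reached 3.13 CPM in conventional dendritic cells, and Cox8b had no UMI in any of them.

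The comparison of Nlrp3KO with Nlrp3WT libraries asked whether the deletion changed these genes in microglia. It was made on UMIs summed over the microglia of each library in 5 pairs of the same age and background, with edgeR's quasi-likelihood test and Benjamini-Hochberg adjustment over all genes. Of 91 members tested (78 nuclear, 13 mitochondrial), 0 were called at an adjusted p under 0.05, against 0.0485% of all 12383 genes, and DESeq2 also called 0. At an unadjusted p under 0.05 there was 1 member, against 4.40% of all genes. That member was Ndufa5, a subunit of the matrix arm of complex I, with a log2 fold change of -0.15 (SE 0.059, adjusted p = 0.955). Its microglial level was 65.2, 69.5, 74.7, 93.0 and 81.0 CPM in the Nlrp3WT libraries (WT 3m, APP/PS1 3m, WT 6m, WT 9m, APP/PS1 9m) and 63.4, 52.4, 74.5, 80.6 and 75.2 CPM in their Nlrp3KO partners. It was lower in the Nlrp3KO library of each of the 5 pairs, by under 1 CPM at 6 months, while the ranges of the 2 groups overlapped. The next members by p were mt-Nd5 (0.12), Uqcr11 (-0.11), Ndufs7 (0.09) and Cox6a1 (0.09), none past the unadjusted threshold. In HM alone no member was called, against 0.0668% of all genes, and 4 nuclear members (Ndufa5, Ndufa2, Ndufa6 and Uqcr11) had an unadjusted p under 0.05, all with fold changes below 0, against 4.14% of all genes. Fold changes there were below 0 for 45 of 77 nuclear and 1 of 13 mitochondrial members, against 47.8% of all genes.

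The median log2 fold change was -0.01 for nuclear and 0.05 for mitochondrial members. As a sum, nuclear members differed by -0.02 ± 0.06 and mitochondrial members by 0.03 ± 0.14 (log2, Nlrp3KO minus Nlrp3WT, SD over 5 pairs), higher in 2 and 3 of the 5 pairs. Uqcrq of complex III, the member within 20 Mb of Nlrp3 on chromosome 11 (chr11:53427922-53430831, 6.1 Mb away), was looked at because it lies near the targeted locus. Its log2 fold change was -0.0026 with an SE of 0.049 (adjusted p = 0.9998), at 132 to 167 CPM in Nlrp3WT and 127 to 169 CPM in Nlrp3KO microglia. In DAM alone 0 of 88 members tested were called (0.138% of all genes, 7.27% at an unadjusted p under 0.05, against 4 nuclear members higher and 1 mitochondrial member lower), with Cox6a1 nearest at a log2 fold change of 0.45 (SE 0.13, adjusted p = 0.217).

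The comparison of APP/PS1 with non-diseased microglia, over 4 pairs of the same age and Nlrp3 genotype at 3 and 9 months, called 0 of 91 members with edgeR and 0 with DESeq2, against 0.114% of all 12282 genes. At an unadjusted p under 0.05 there was 1 member, against 7.57% of all genes. Uqcrc2, a core subunit of complex III, had a log2 fold change of -0.16 (SE 0.044, adjusted p = 0.415), at 93.4, 97.1, 105 and 104 CPM in WT 3m, Nlrp3KO 3m, WT 9m and Nlrp3KO 9m and 85.5, 88.6, 93.1 and 86.5 CPM in the matching APP/PS1 libraries. Every APP/PS1 library lay below the lowest non-diseased one. Next by p came Ndufs6 (-0.12), Atp5f1 (-0.10), Cox6a1 (0.18) and Cox6a2 (1.13, SE 0.47, adjusted p = 0.696). The nuclear sum differed by -0.01 ± 0.06 and the mitochondrial sum by -0.14 ± 0.22 (log2, APP/PS1 minus non-diseased, SD over 4 pairs). Leaving out 1 pair moved the nuclear difference from -0.035 to 0.014 and the mitochondrial difference from -0.23 to -0.054.

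These sums over all microglia mix states in proportions that differed most at 9 months. DAM made up 0.431% to 3.79% of microglia in the non-diseased libraries and 11.7% and 11.5% in the 2 APP/PS1 libraries of 9 months. In the 2 APP/PS1 libraries of 3 months they made up 0.778% and 1.01%, within the non-diseased range. Within HM, no member was called, against 0.0421% of all 11887 genes, and most fold changes of members were below 0. The nuclear sum in HM was lower in 4 of 4 pairs (-0.07 ± 0.06) and the mitochondrial sum also (-0.22 ± 0.17), with 74 of 77 nuclear and 13 of 13 mitochondrial fold changes below 0, against 48.1% of all genes. At an unadjusted p under 0.05 there were 14 nuclear and 7 mitochondrial members, all with fold changes below 0, against 4.95% of all genes in either direction. In DAM the nuclear sum was higher in 4 of 4 pairs (0.27 ± 0.15) and the mitochondrial sum in 3 of 4 (0.12 ± 0.15). The difference between the changes in HM and in DAM was not tested.

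**Figure D3:**
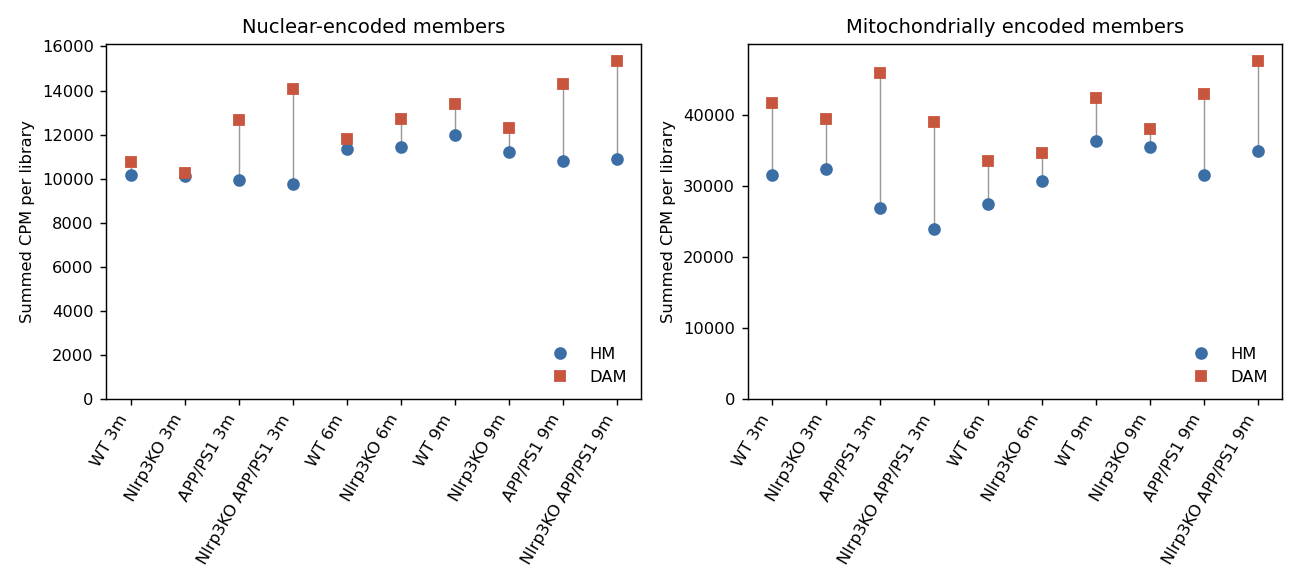
Nuclear sum and mitochondrial sum in CPM in HM and DAM of each library. Nuclear sums in DAM were 12642 to 15342 CPM in the 4 APP/PS1 libraries and 10278 to 13391 CPM in the 6 non-diseased libraries, while HM stayed between 9776 and 11963 CPM.

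When the same APP/PS1 comparison was made on DAM cells alone, which held 24 to 253 cells per library, 19 of 88 members tested were called and all 19 rose. They were 16 nuclear and 3 mitochondrial members. Of all 6331 genes tested, 7.72% were called, 378 up and 111 down. At an unadjusted p under 0.05 there were 42 members, all up, against 18.2% of all genes. The median log2 fold change was 0.35 for nuclear members, 0.34 for mitochondrial members and -0.03 for all genes. These cells were chosen by clustering on their expression, and the non-diseased DAM carried fewer DAM transcripts: the sum of 6 DAM markers (Cst7, Apoe, Lpl, Itgax, Spp1 and Csf1) was 1076 to 5053 CPM in the 4 non-diseased libraries of 3 and 9 months and 6776 to 16645 CPM in the 4 APP/PS1 libraries. Depth and doublet scores moved the same way in 4 of 4 pairs. The median DAM cell held 4691 to 5397 UMIs in the non-diseased and 6185 to 8018.5 UMIs in the APP/PS1 libraries, and a doublet score above 0.5 was recorded for 2.70% to 10.9% and 12.6% to 22.8% of DAM. Without the cells of such a score 15 of 88 members were called, all higher in APP/PS1, against 372 of all 5679 genes. Border macrophage markers summed to a median of 10.8 CPM in non-diseased and 18.7 CPM in APP/PS1 DAM, and monocyte markers to 10.5 and 21.2 CPM, with overlapping ranges. The part of the DAM marker level, of these other markers and of depth in the result was not tested.

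Ndufa1 had the smallest p. Its level in DAM was 137, 108, 181 and 135 CPM in WT 3m, Nlrp3KO 3m, WT 9m and Nlrp3KO 9m and 246, 237, 244 and 313 CPM in APP/PS1 3m, Nlrp3KO APP/PS1 3m, APP/PS1 9m and Nlrp3KO APP/PS1 9m, with no overlap. The log2 fold change was 1.06 (SE 0.18, adjusted p = 0.000151). Atp5e rose by 0.92 on the log2 scale (SE 0.16, adjusted p = 0.000161), from 261, 249.96, 219 and 194 CPM to 365, 385, 368 and 407 CPM in the same order. Cox6a1 rose by 0.96 (SE 0.17, adjusted p = 0.000227), from 180.2, 230.4, 157 and 173 CPM to 237, 334, 277 and 405 CPM. In both genes the lowest APP/PS1 library lay above the highest non-diseased one, although for Cox6a1 by a narrow gap.

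Uqcrh rose by 0.78 (SE 0.15, adjusted p = 0.000803), from 304, 255, 328 and 333 CPM to 387, 469, 475 and 534 CPM. Cox4i1 rose by 0.68 (SE 0.15, adjusted p = 0.00233), from 478, 529, 653 and 596 CPM to 782, 860, 745 and 857 CPM. Both separated the groups without overlap. Atp5c1, the gamma subunit that forms the central stalk of complex V, rose by 0.83 (SE 0.18, adjusted p = 0.00278) with no overlap at 3 and 9 months, from 118, 127, 88.8 and 124 CPM to 246, 242, 138 and 149 CPM, with the higher values at 3 months. The non-diseased libraries of 6 months, which were not in this fit, stood at 148 (WT) and 199 (Nlrp3KO) CPM, within the APP/PS1 range. The other called members were Cox6c (0.75), Cox7c (0.59), Cox8a (0.55), Cox7a2 (0.57) and Cox6b1 (0.50) of complex IV, Atp5j2 (0.58), Atp5l (0.54) and Atp5g2 (0.50) of complex V, Ndufc1 (0.70) and Ndufb8 (0.61) of complex I, and mt-Nd6 (0.95), mt-Nd5 (0.52) and mt-Co1 (0.41). Each of these is a log2 fold change from the same fit, with adjusted p values up to 0.0470. Thus 7 of the 19 were nuclear subunits of complex IV and 5 of complex V. Another 3 were nuclear subunits of complex I and 1 of complex III, and complex II gave none. The symbol rule held 18 nuclear members of complex IV, 17 of complex V, 37 of complex I, 8 of complex III and 4 of complex II. With only 4 members, the lack of a call in complex II does not set it apart.

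**Figure D4:**
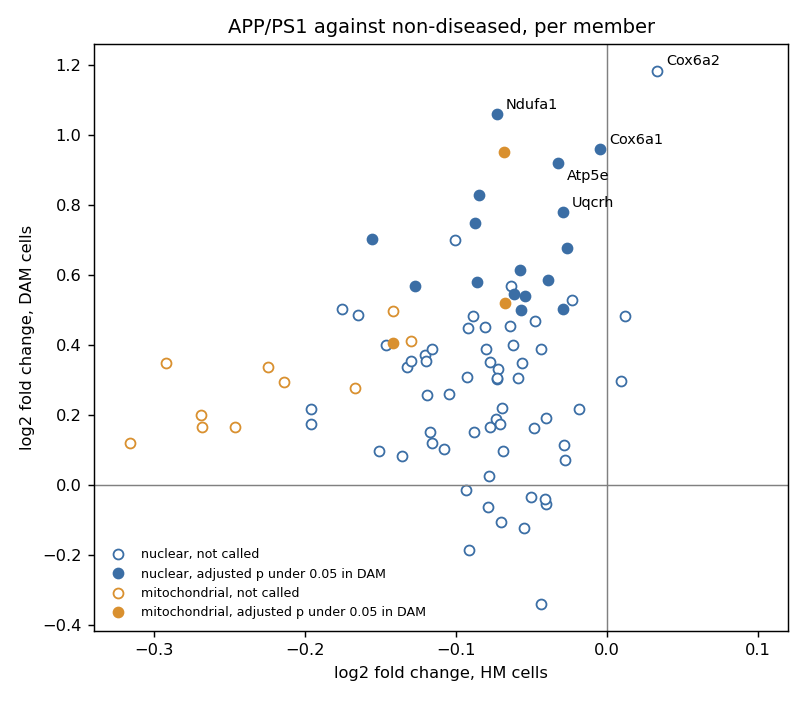
Log2 fold change of APP/PS1 against non-diseased for each member in HM (horizontal axis) and in DAM (vertical axis), from the edgeR fits of each state. Most points lie above 0 in DAM, with the called Ndufa1 at 1.06, and below 0 in HM; Cox6a2, at 1.18 in DAM, was not called.

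The number of called members in DAM depended on the fit and on the libraries, and all called members rose in each. DESeq2 called 10 of 88 members, and 227 of all 6331 genes. Labels from the authors' second annotation, of all CD45+ cells, gave 5 of 88 members, and 178 of all 7713 genes. The 2 pairs of 3 months alone gave 9 of 86 members (327 of all 3557 genes). The 2 pairs of 9 months alone gave 6 of 89 members (309 of all 8090 genes). These are the values within each batch. Leaving out WT 3m and APP/PS1 3m gave 8 of 88 (316 of all 6868 genes), and leaving out the Nlrp3KO pair of 3 months gave 11 (369 of 5865). Leaving out WT 9m and APP/PS1 9m gave 24 (466 of 5649), and leaving out the Nlrp3KO pair of 9 months gave 8 (283 of 4467).

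Whether the Nlrp3 effect differed between APP/PS1 and non-diseased microglia was tested as an interaction. Of 91 members, 0 were called by edgeR and 0 by DESeq2 (0.00% of all genes). At an unadjusted p under 0.05 there were 5, all positive, against 2.49% of all genes: Cox4i1 (0.24), Cox7a2l (0.21), Sdhd (0.24), Uqcrh (0.18) and Atp5g2 (0.18), in log2 units and with an adjusted p of 1. In the test of whether the APP/PS1 effect was greater at 9 than at 3 months, 0 members were called by either tool (0.0163% of all genes). At an unadjusted p under 0.05 there were 10, all positive, against 5.25% of all genes. They were 8 mitochondrial members and Uqcrh and Cox6a1, and mt-Nd2 (0.42, SE 0.12, adjusted p = 0.882) had the smallest p, followed by Uqcrh (0.37), mt-Co3 (0.41), mt-Co2 (0.40) and Cox6a1 (0.36). All 13 mitochondrial members had a positive difference, with a median of 0.40. These sums over all microglia mix states. In the APP/PS1 libraries DAM made up 0.778% and 1.01% of microglia at 3 months and 11.7% and 11.5% at 9 months. In HM alone this test called 0 of 90 members and 0 of all 11887 genes. The part of the state proportions in these differences was not tested.

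The level of mt-Co3 over all microglia illustrates the difference between the ages. It was 5517 and 5709 CPM in WT 3m and Nlrp3KO 3m, and 4547 and 4254 CPM in their APP/PS1 partners. At 9 months it was 7190 and 6772 CPM in WT and Nlrp3KO, and 6633 and 7114 CPM in their partners. At 3 months both APP/PS1 libraries were low, whereas at 9 months the groups overlapped. The authors' filter removed cells by their mitochondrial share before deposit, so the mitochondrial values describe the cells that were kept, in which the share reached at most 13.7% of the UMIs in microglia.

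Genes around the pathway, from lists of assembly factors (48 genes), carriers and the ATP synthase inhibitor (6), the citric acid cycle (13), mitochondrial genome expression (15), regulators (9), glycolysis (20) and uncoupling and superoxide defence (5), had no called gene in any of the 4 comparisons over all microglia, by the edgeR test. In DAM against HM, glycolysis had a median log2 ratio of 0.59, with 4 genes higher in every library (Slc16a3 1.06, Gapdh 0.99, Tpi1 0.94 and Pfkl 0.59) and Ldhb lower in every library (-0.43). Slc16a3 exports lactate, and Gapdh, Tpi1 and Pfkl are glycolytic enzymes. The other lists had no gene higher or lower in every library, and their medians ran from -0.38 for the regulators to 0.03 for uncoupling and superoxide defence. Assembly factors had a median of -0.15 and the citric acid cycle of -0.19, both close to the -0.14 of all genes and below the 0.16 of the nuclear members.

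Cox6a2, the muscle form of complex IV subunit 6A, had the highest ratio of DAM to HM among the members. In DAM it stood at 49.7 CPM in WT 3m (8 UMIs in 31 cells), 24.5 in Nlrp3KO 3m, 154 in APP/PS1 3m, 104 in Nlrp3KO APP/PS1 3m, 112 in WT 6m, 28.5 in Nlrp3KO 6m, 236 in WT 9m, 101 in Nlrp3KO 9m, 235 in APP/PS1 9m and 302 in Nlrp3KO APP/PS1 9m. In HM of the same libraries it ranged from 3.53 to 9.51 CPM, so every DAM value lay above every HM value. The geometric mean ratio was 15.8-fold, from a log2 ratio of 1.80 to 5.41 over libraries. Detection in HM is not read as expression, as set out below, so ratios of Cox6a2 to HM are not exact folds of expression. Pooled over libraries the level was 192 CPM in DAM (95% Poisson interval 181 to 203, for counting error only), 30.8 in IEG, 18.8 in PM, 15.8 in TM, 14.2 in IRM and 6.68 in HM. The ratios to HM in IEG (2.34 ± 0.56), PM (1.45 ± 0.93), TM (1.26 ± 0.49) and IRM (1.14 ± 0.90) lay below that in DAM, and those of PM, TM and IRM did not differ beyond their SDs.

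**Figure D5:**
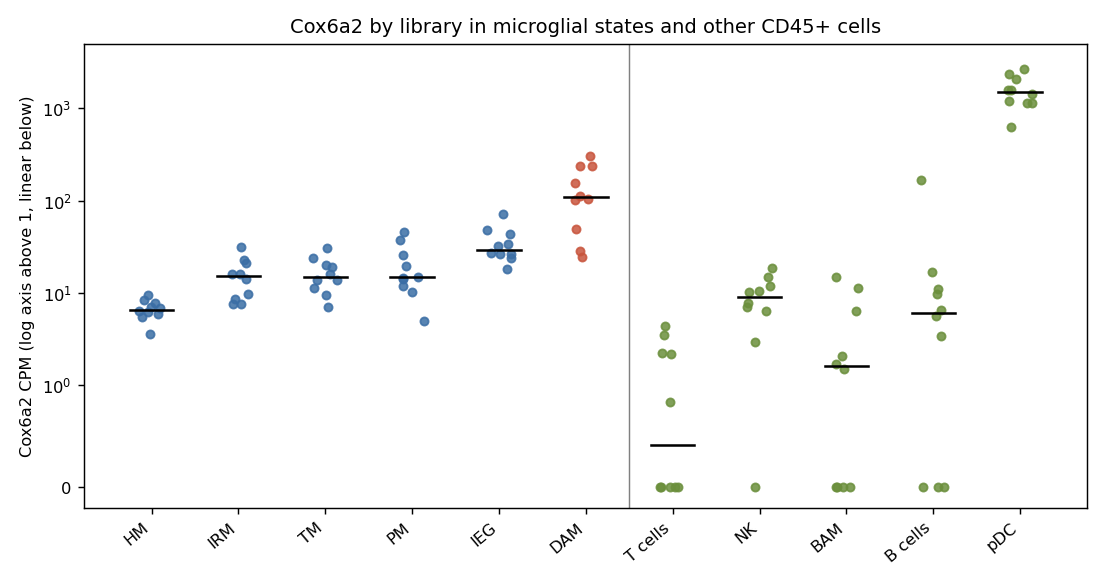
Cox6a2 in CPM on a log axis, by library in the microglial states and by cell type. The DAM points run from 24.5 to 302 CPM, above the HM points of 3.53 to 9.51 CPM, and pDC reach 1583 CPM pooled.

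A UMI of Cox6a2 was found in 39.96% of DAM (95% exact interval 36.7 to 43.2) and 2.64% of HM. By library the share in DAM ran from 8.11% in Nlrp3KO 3m and 10.2% in Nlrp3KO 6m to 58.4% in Nlrp3KO APP/PS1 9m, and the 2 APP/PS1 libraries of 9 months gave 253 and 202 of the 901 DAM. T cells, which should lack the gene, had it in 0.501% of cells at a median of 5810 UMIs per cell, close to the 5726 of DAM. The share was 3.10% in NK cells (median 5989 UMIs), 2.63% in B cells (4671 UMIs) and 1.79% in BAM (6154 UMIs). After thinning each cell to 1500 UMIs the shares were 17.6% in DAM, 0.914% in HM, 1.09% in NK cells, 1.31% in B cells, 0.552% in BAM and 0.125% in T cells. The pooled share in HM thus lay within the range of these other cells and is not read as expression, whereas the pooled share in DAM lay above all of them. By library the thinned share in DAM ran from 1.69% in Nlrp3KO 6m (1 of 59 cells), close to the 1.31% of B cells, to 26.2% in Nlrp3KO APP/PS1 9m. Cox6a1 was higher in DAM as well, but less so, so that Cox6a2 made up 40.3% of the UMIs of the pair in DAM, 4.44% in HM and 87.8% in pDC. By library this share in DAM ran from 9.62% in Nlrp3KO 3m to 60% in WT 9m. In the 2 APP/PS1 libraries of 9 months DAM made up 11.7% and 11.5% of microglia and held 75.0% and 74.3% of the microglial Cox6a2 UMIs. In the others DAM made up 0.431% to 3.79% of microglia and held 1.97% to 32.2% of these UMIs.

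Cells of other types were looked for in DAM by their markers. pDC, the other cells rich in Cox6a2 (1583 CPM, with a UMI in 97.1% of 102 cells), are marked by Ccr9, which stood at 1003 CPM in pDC and 0.861 CPM in DAM. The 3 pDC markers (Ccr9, Siglech, Bst2) summed to 1832 to 4698 CPM in DAM and 1900 to 2283 CPM in HM, with Siglech also a gene of microglia. Markers of 2 other myeloid types were higher in DAM than in HM in part of the libraries. The 4 border macrophage markers summed to 0 to 49.7 CPM in DAM (median 10.5) and 3.46 to 7.43 CPM in HM, with Pf4 at 14.1 and 0.791 CPM and Lyve1 at 0 in DAM. The 3 monocyte markers summed to 0 to 38.6 CPM in DAM (median 13.7) and 5.08 to 9.99 CPM in HM, with Ly6c2 at 12.2 and 0.375 CPM and Ccr2 at 5.51 and 5.69 CPM. Their part in the level of Cox6a2 was not tested. Erythroid genes were at 0 in DAM, as were Cd79a and Ms4a1 of B cells, and the muscle genes Acta1, Mb, Myh7 and Tnnt2, while the 7 muscle genes summed to 13.2 to 47.8 CPM in DAM and 20.2 to 27.2 CPM in HM. A doublet score above 0.5 was found in 17.8% of DAM with a Cox6a2 UMI, against 14.4% of all DAM. Without cells of such a score the mean log2 ratio of Cox6a2 in DAM to HM was 3.99.

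Between groups, Cox6a2 in DAM was lower in Nlrp3KO than in its partner in 4 of 5 pairs, with a log2 fold change of -0.47 (SE 0.35, adjusted p = 0.899 by edgeR), and it was not called. In APP/PS1 against non-diseased DAM its log2 fold change was 1.18 (SE 0.35, adjusted p = 0.102), higher in 3 of 4 pairs and not called. In HM the same comparison gave 0.03 (SE 0.15, adjusted p = 0.998).

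Over 60 sums of a state in a library, the genes whose log2(CPM + 1) went most with that of Cox6a2, among 12131 genes, were Capg (Pearson r = 0.84), Gapdh (0.83), Ccl6 (0.83), Syngr1 (0.82) and Ndufa1 (0.81). These points share libraries and states, so the values are a description. Ndufa1 was thus the member nearest to Cox6a2, and Uqcrq (0.68) and mt-Nd5 (0.66) came next among the members, at ranks 41 and 45.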

How the data were processed

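Single-cell libraries were made with 10x Genomics 3' chemistry. According to the study's methods, the authors aligned reads to mm10 with Cell Ranger, dropped outlier cells (beyond 3 median absolute deviations) by UMI total, gene number and mitochondrial proportion, and annotated clusters with Seurat. The authors deposited whole-number UMI counts per gene and cell without normalization, and an annotation with the percent of mitochondrial UMIs, the fraction of ribosomal UMIs and a doublet score as they computed them. Cells of 2 library names that match no sample label (6897 of 52369 cells) were not used. The authors' deposited labels gave states and cell types.

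Counts were summed per library and state or type (at least 20 cells) and given as CPM. Within-library log2 ratios used a prior count of 0.5 and genes with at least 100 counts. Library comparisons used edgeR 4.0.16 in R 4.3.3 (filterByExpr, TMM, glmQLFit robust, pair block for age and genotype), with p-values adjusted over all genes and called at 0.05, and DESeq2 1.42.0 as an alternative. SE is the log2 fold change over the root of F. A pool of 3 mice was 1 sample, and no group had a repeat. The p-values thus reflect how far the differences varied between pairs of different age and genotype, which includes the spread between pools. In data simulated for the Nlrp3 comparison (12247 genes), 76.8% of genes changed by 0.5 and 88.7% of genes changed by 1 (log2) were recovered. For the APP/PS1 comparison (12149 genes) the shares were 72.0% and 88.8%. The simulated libraries held no differences between ages or pairs, and smaller changes were not simulated.

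Members, gene lists and tests were chosen with earlier results of these data known. Named were called members, the 5 of smallest p per comparison, mitochondrial members, isoforms, complex II, extremes of DAM against HM and of cell types, members near Nlrp3, the most abundant per complex and the genes most like Cox6a2, of which 1 result is not reported here. Sequences came from RefSeq and GENCODE M21 (GRCm38). The range of microglial UMIs per library is given with the results, and intervals cover counting error only. The median microglial cell held from 3978 UMIs in Nlrp3KO APP/PS1 3m to 5985 UMIs in its partner APP/PS1 3m. Python 3.11.15 with numpy 2.4.6, scipy 1.17.1, Biopython 1.88 and matplotlib 3.10.9 was used. The pair block was part of each fit, and a fit with additive covariates was an alternative. Other alternatives were DESeq2 size factors, no filter, 1 state alone, other denominators, other labels and leaving out each pair or library.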

Additional observations from a re-analysis of the deposited data

Results flagged for a closer look

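In 4 of 36 groups of libraries checked, the highest or lowest library stood apart from the others of its group by a gap that was large for the group's range. Chance flags about 5% of groups of alike libraries. The groups here shared libraries and mixed ages and genotypes, so this rate does not carry over to them. All 4 concerned Cox6a2. Over all microglia, APP/PS1 9m (47.1 CPM) was the highest of the 5 Nlrp3WT libraries and Nlrp3KO APP/PS1 9m (64.1 CPM) the highest of the 5 Nlrp3KO libraries. These are the 2 libraries in which DAM made up 11.7% and 11.5% of microglia. Within DAM, Nlrp3KO APP/PS1 9m (302 CPM) was the highest of the 5 Nlrp3KO libraries. Within HM, Nlrp3KO 6m (3.53 CPM, from 46 UMIs) was the lowest of the 6 non-diseased libraries.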

How the results depend on the processing

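Of the values recomputed under an alternative that left all libraries in, 104 stayed the same, that is within 1 SD for levels and equal or near for counts. Further, 12 levels moved by more, 4 counts became smaller and 1 became larger. A reversal was counted only for means larger than their SD, and none was found. Means smaller than their SD could change sign. Leaving out 1 pair moved the Nlrp3KO minus Nlrp3WT difference from -0.029 to 0.0074 (nuclear) and from -0.0068 to 0.071 (mitochondrial). The APP/PS1 minus non-diseased difference moved from -0.035 to 0.014 (nuclear) and from -0.23 to -0.054 (mitochondrial). In all 4 comparisons over all microglia the count of called members remained 0 under every alternative run, except that DAM cells alone gave 19 for APP/PS1. That count was 10 with DESeq2, 5 with labels from the annotation of all CD45+ cells, 9 with the 3-month pairs, 6 with the 9-month pairs, and 8 to 24 when 1 pair was left out. Calls among all genes changed as well, from 489 to 227, 178, 327, 309 and 283 to 466 in the same order. These alternatives were added after seeing the data, and the cause was not tested. With mitochondrial and ribosomal protein genes left out of the total, the nuclear and mitochondrial log2 ratios were 0.28 and 0.59 in TM, 1.18 and 0.92 in T cells, 1.03 and 1.26 in B cells, 1.12 and 0.67 in NK cells, and 0.53 and 0.32 in BAM, since this total is smaller in cells rich in such genes. The mitochondrial ratio was 0.35 in TM with the labels of all CD45+ cells and 1.09 in B cells as a mean over cells. Leaving out each library moved the DAM ratio to HM from 0.21 to 0.26 (nuclear), from 0.34 to 0.42 (mitochondrial) and from 3.83 to 4.23 (Cox6a2). Few cells limit the DAM values, with 24, 31 and 37 DAM cells in the 3 smallest libraries. The pairs were matched by age and genotype, and additive covariates in place of the pair block gave 0 called members over all microglia for Nlrp3 and for APP/PS1.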

Other observations

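Among the genes within 100 kb of Cox6a2 on chromosome 7, the integrin gene Itgax, whose nearer end lies 54.8 kb away, was also higher in DAM (50.8 CPM) than in HM (2.52 CPM). Over other cells the 2 genes differed: Itgax stood at 47.3 CPM in pDC and 128 CPM in NK cells, where Cox6a2 stood at 1583 and 8.76 CPM. Itgax is a DAM marker and a known gene of dendritic cells. Itgam, 86.9 kb away, stood at 441 CPM in DAM and 534 CPM in HM, and Armc5, 31.0 kb away, at 30.8 and 39.1 CPM. Other neighbours were also higher in DAM than in HM, by less: Gm49368, 77.3 kb away, stood at 18.3 and 10.1 CPM, BC017158 at 12.2 and 10.4 CPM, and Tgfb1i1 at 2.75 and 2.05 CPM. Gm49368 overlaps Itgam on the same strand, so its counts are uncertain. Itgad, which overlaps Cox6a2 on the opposite strand, had 0 CPM in DAM.

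The 9 cells annotated as epithelial held 66855 CPM of nuclear members, with Cox8b at 803 CPM, Cox7a1 at 224 CPM and Atp5g1 at 3045 CPM. All 43 UMIs of Cox8b came from these cells.

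In B cells of WT 6m, 98 UMIs of Cox6a2 came from 2 of 67 cells, against 0 to 5 UMIs in the B cells of each other library.

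In the difference of the APP/PS1 effect between 9 and 3 months, 11 of 20 glycolysis genes had an unadjusted p under 0.05, against 5.25% of all genes tested, all 11 positive, and none was called by edgeR (smallest adjusted p = 0.141). Pgk1 (log2 0.70), Tpi1 (0.57) and Pfkl (0.53) were among them. These values are from all microglia, in which the share of DAM in APP/PS1 libraries differed between the ages. The part of that share in the result was not tested.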
